A study of Mus musculus with 7 samples.

Results

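The genes of voltage-gated sodium and calcium channels were placed against the lamin-associated domains (LADs) of mouse embryonic fibroblasts. They were chosen by symbol from the protein-coding genes of the mm10 RefSeq table, as Scn with a digit and a final a or b, or as names starting Cacna1, Cacna2d, Cacnb or Cacng. The rule found 40 genes among 21887 protein-coding genes on the placed chromosomes. There were 14 sodium channel genes (10 for alpha and 4 for beta subunits) and 26 calcium channel genes (10 for alpha1, 4 for alpha2delta, 4 for beta and 8 for gamma subunits).

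The study profiled fibroblast lines that the labels call iMEF and describe as derived independently from a single mouse colony. CUT&RUN, in which an antibody directs a nuclease to cut and release the chromatin it binds, was run in 7 libraries: 2 for Lamin B1, 2 for IgG as the control, 1 for H3K9me2 with each of 2 antibodies, and 1 for H3K14ac. The measurements here come from the deposited merged list of 1437 LADs. Its name gives wild type as the genotype, and the labels used here name no treatment. Signal per library was not analysed here, so depth is unknown, no placement has a replicate error, and no test over samples could be made. Counts of channel genes are therefore set beside the same counts over all protein-coding genes, as a description. Lamin B1 binding was the only readout used, and gene expression was not analysed here.

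Voltage-gated channels open when the membrane depolarises. Each has a large pore-forming subunit, called alpha in sodium channels and alpha1 in calcium channels, and smaller subunits that set its trafficking and gating. Sodium channels carry the rising phase of the action potential in neurons and muscle, and calcium channels couple depolarisation to transmitter release, contraction and gene expression. LADs are regions of the genome that contact the nuclear lamina, a meshwork of lamin proteins lining the inner nuclear membrane, and they are generally poor in active genes. Fibroblasts are not classed as excitable cells.

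A gene was counted as in a LAD where its midpoint lay in a domain. By that rule 12 of the 40 channel genes (30%) were in LADs, against 23.8% of all protein-coding genes and 19.1% of those that are not olfactory or vomeronasal receptors. The 12 genes were Scn1a, Scn2a, Scn3a, Scn7a, Scn9a, Scn11a, Scn3b, Cacna1e, Cacna2d1, Cacna2d3, Cacnb2 and Cacng3. They lay in 9 domains, of 175.0 kb to 2.63 Mb. Sodium channel genes were in LADs in 7 of 14 cases (50.0%) and calcium channel genes in 5 of 26 (19.2%). This contrast rests on 1 locus: 5 of the 7 sodium channel genes belong to a cluster on chromosome 2. Without them 7 of 35 channel genes (20%) and 2 of 9 sodium channel genes (22.2%) were in LADs, shares near or below the background.

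**Figure D1:**
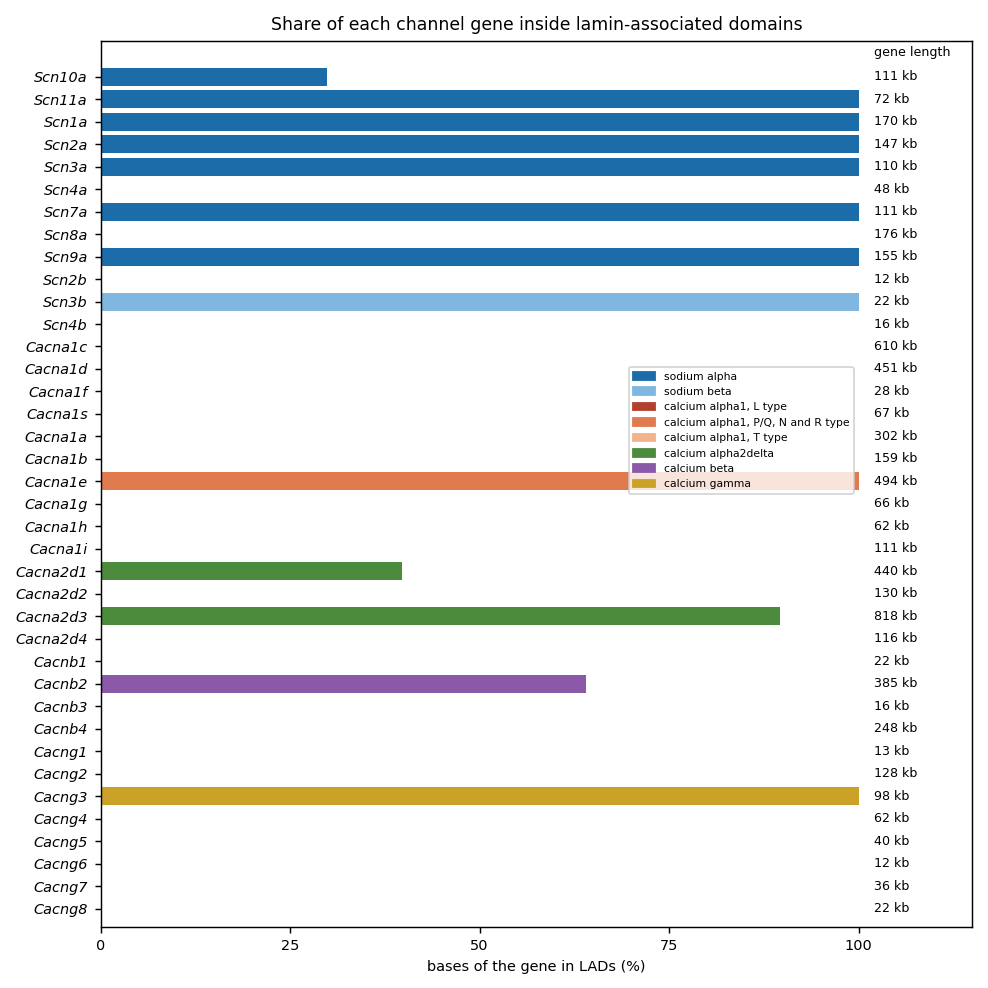
Percentage of the bases of 38 of the 40 channel genes that lay in LADs (horizontal axis), coloured by subunit class, with the gene length at the right. Bars reach 100% for 9 genes, 4 genes are covered in part, from 29.9% in Scn10a to 89.6% in Cacna2d3, and the other 25 genes plotted have no bar because no base lay in a LAD.

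The whole gene lay in a LAD for 9 channel genes (22.5%), against 21.8% of all protein-coding genes. Any base lay in a LAD for 13 channel genes (32.5%), against 25.1%. The 4 genes between these counts, Scn10a, Cacna2d1, Cacna2d3 and Cacnb2, each held a LAD border inside the gene. A gene partly in LADs was found in 4 of 40 cases (10.0%) here and in 3.36% of all protein-coding genes. All 4 are over 100 kb long, and among genes of at least 100 kb the values were 20% of 20 channel genes and 16.5% of 2429 genes.

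Channel genes are long: their median length was 104.1 kb, against 17.2 kb over all protein-coding genes. The share in LADs varied with gene length in both sets. Of the channel genes under 20 kb, 0 of 6 were in LADs, against 26.5% of all genes of that length and 18.3% of those that are not olfactory or vomeronasal receptors. From 20 to 100 kb it was 3 of 14 (21.4%), against 16.4%. At 100 kb or more it was 9 of 20 (45.0%), against 33.8%. Without the chromosome 2 genes, a removal that could only lower the share, the last count was 4 of 15 (26.7%). The direction of the difference from genes of that length thus depended on that locus.

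The pore-forming alpha subunits of sodium channels were in LADs in 6 of 10 cases, against 23.8% of all protein-coding genes and 33.8% of those of 100 kb or more. Without the chromosome 2 genes it was 1 of 5 (20%). That locus holds 5 alpha genes within 1328 kb: Scn3a, Scn2a, Scn1a and Scn9a, which encode channels of central and sensory neurons, and Scn7a, which encodes an atypical channel linked to sodium sensing. Csrnp3, Galnt3 and Ttc21b stand between Scn2a and Scn1a. LADs covered 93.6% of this stretch, and each of the 5 genes lay in a LAD over its full length. Scn3a (chr2:65457118-65567591) and Scn2a (chr2:65620764-65767447) were in a LAD of 662.5 kb (chr2:65434704-66097201). Scn1a (chr2:66270781-66440837), Scn9a (chr2:66480080-66635114) and Scn7a (chr2:66673426-66784910) were in the next, of 1597 kb (chr2:66182202-67779696). The gap between these domains measured 85.0 kb and fell at Galnt3, a gene for an enzyme of protein glycosylation, of which 34.1% lay in a LAD. Depth inside the domains differed among the 5 genes. The midpoint of Scn3a was 77.7 kb from the nearest border and that of Scn7a 547.0 kb, the deepest of the channel genes. Scn1a, Scn2a and Scn9a were between, at 173.6, 259.4 and 375.4 kb.

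The second cluster of sodium channel genes was divided by a border. On chromosome 9, Scn10a and Scn11a, both known from pain-sensing neurons, stand within 217.0 kb, and LADs covered 64.2% of that stretch. A domain of 192.5 kb (chr9:119686207-119878705) began inside Scn10a (chr9:119608456-119719322), covered 29.9% of it, and held all of Scn11a (chr9:119753763-119825456), the only protein-coding gene with its midpoint in that domain. Scn10a is read from its high-coordinate end, so the covered part was its first 33.1 kb with the gene start, and the rest of the gene lay outside. Its midpoint was 22.3 kb from the border, the shortest distance among channel genes counted as outside. The domain is local: within 1 Mb on each side of the midpoint of Scn11a, LADs covered 13.7% of the bases, the lowest value among the 12 genes in LADs, against 95.8% around Scn7a and Scn9a.

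Among the alpha genes outside LADs, Scn4a of skeletal muscle on chromosome 11 and Scn8a of neurons on chromosome 15 were far from any domain. Their midpoints lay 2129 kb and 2553 kb from the nearest border. No base within 1 Mb of either midpoint was in a LAD.

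**Figure D2:**
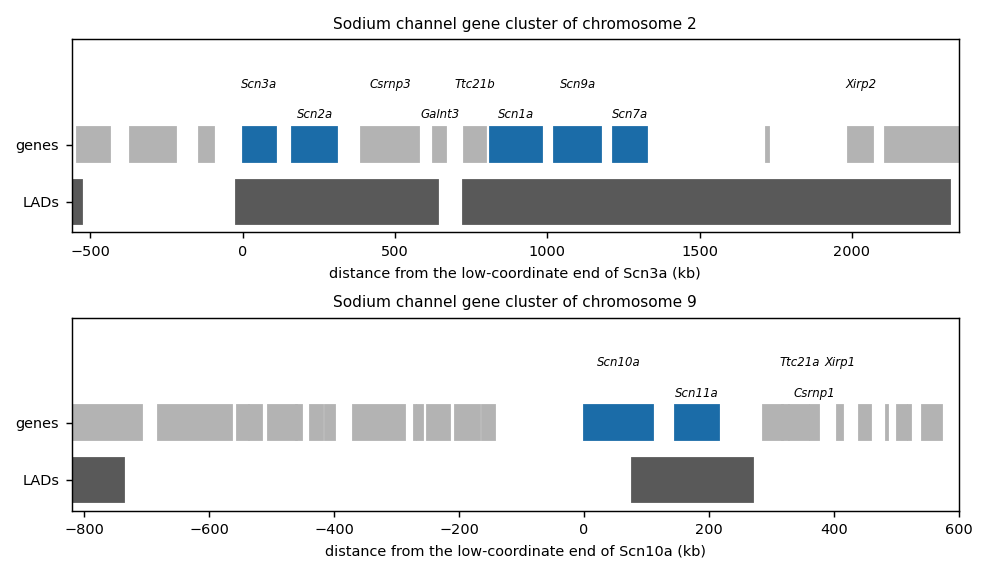
LADs (dark) and protein-coding genes (blue for sodium channels, grey for others; not every gene is drawn) along the clusters of chromosome 2 (top) and chromosome 9 (bottom), in kb from the low-coordinate end of Scn3a (top) and Scn10a (bottom). On chromosome 2 all 5 channel genes lie over LADs with a gap of 85.0 kb at Galnt3, and on chromosome 9 a LAD border crosses Scn10a.

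The beta subunits of sodium channels are single-pass membrane proteins with an immunoglobulin fold. Of the 4 genes, 1 was in a LAD, a share near the 23.8% of all protein-coding genes. This was Scn3b (chr9:40269216-40291618). It lay at the edge of a domain of 2.63 Mb (chr9:37668966-40301457), with its midpoint 21.0 kb from the border, the shortest distance among the 12 channel genes in LADs. Of the 100 protein-coding genes in this domain, 95 were olfactory receptors. The neighbouring genes Scn2b and Scn4b, also on chromosome 9, were outside at 1412 and 1390 kb from a border.

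Of the 10 alpha1 genes of calcium channels, 1 was in a LAD (10.0%). The share was 23.8% over all protein-coding genes and 33.8% over those of 100 kb or more. Cacna1e (chr1:154390806-154884785), which encodes the R-type channel of neurons, lay whole in a domain of 1012 kb (chr1:153959514-154972010) whose only other protein-coding gene was Zfp648. Its relatives of presynaptic terminals were outside, Cacna1a (P/Q type) at 1431 kb and Cacna1b (N type) at 413.7 kb from a border. All 4 L-type genes were outside: Cacna1d at 359.3 kb, Cacna1f, the retinal gene on the X chromosome, at 629.3 kb, Cacna1s of skeletal muscle at 748.3 kb, and Cacna1c, the main gene of heart and smooth muscle, at 1998 kb. All 3 T-type genes, whose channels open at low voltage, were outside as well, Cacna1g at 611.0 kb, Cacna1h at 1871 kb and Cacna1i at 6218 kb, the farthest of the 40 genes. The longest alpha1 genes differed in placement: Cacna1c and Cacna1d, of 610.1 and 451.2 kb, had no base in a LAD, and Cacna1e, of 494.0 kb, was covered throughout.

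**Figure D3:**
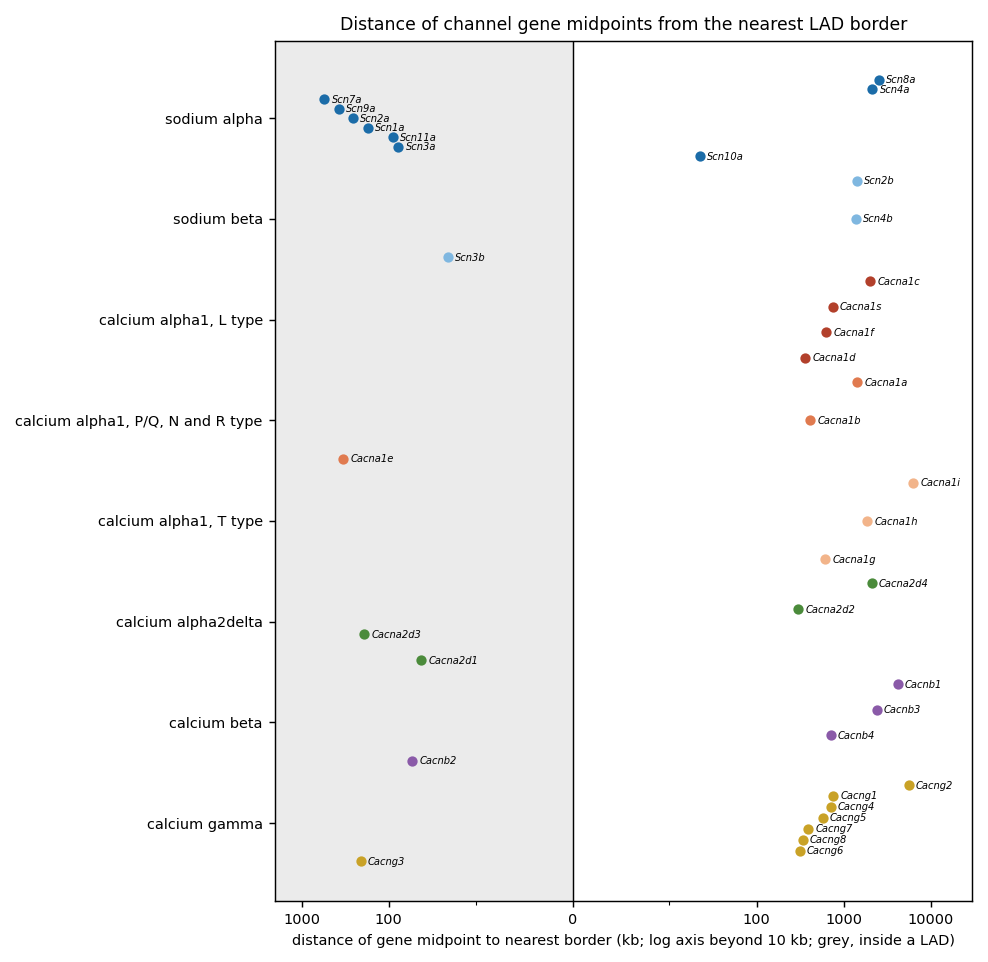
Distance in kb from the midpoint of 38 of the 40 channel genes to the nearest LAD border (horizontal axis, logarithmic beyond 10 kb), by subunit class; the grey side is inside a LAD. The 12 genes inside range from 21.0 to 547.0 kb and the 26 outside from 22.3 to 6218 kb.

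The alpha2delta subunits are extracellular, raise the number of channels at the membrane, and include the targets of gabapentin. Cacna2d3 (chr14:28904943-29722775), the longest channel gene at 817.8 kb, was covered to 89.6% by 2 domains. The gap between them (chr14:29036230-29121229, 85.0 kb) lay wholly inside the gene, as did 61 of the 1416 gaps between LADs (4.31%) in some protein-coding gene. The next channel gene on chromosome 14, Cacna1d, was outside, and 133.7 kb separated it from the end of the LAD that holds the start of Cacna2d3.

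Cacna2d1 (chr5:15934264-16374511) was covered to 39.8%, by a domain of 175.0 kb (chr5:16112262-16287260) that lay wholly inside the gene, as 103 of the 1437 LADs (7.17%) did in some protein-coding gene. Another LAD (chr5:15439764-15932261) ended 2.43 kb before the start of Cacna2d1 given in the RefSeq promoter table. That distance is about 1 step of the list, in which domain lengths were multiples of 2.5 kb (100% of them to within 100 bp). The listed start thus fell outside that LAD, but so close to its border that the side is not firm. The middle of the gene lay inside the domain of 175.0 kb. Cacna2d2 and Cacna2d4 had no base in a LAD, with midpoints 300.8 and 2085 kb from a border.

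The beta subunits of calcium channels are intracellular partners of the alpha1 pore. Cacnb2 (chr2:14603861-14988811), a main beta gene of the heart, was covered to 64.0% by a domain of 265.0 kb (chr2:14742365-15007363) that began 138.5 kb into the gene. Its listed starts fell on both sides of this border. The first lay in the gap, 84.4 kb from the preceding LAD, and the second, 220.2 kb into the gene, lay in the LAD at 81.7 kb from a border. Cacnb1, the skeletal muscle gene, Cacnb3 and Cacnb4 were outside, at 4182, 2396 and 709.8 kb from a border.

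Some gamma subunits are partners of muscle calcium channels and others serve AMPA-type glutamate receptors. Of the 8 genes, 1 was in a LAD (12.5%), against 23.8% of all protein-coding genes and 16.4% of those of 20 to 100 kb. This was Cacng3 (chr7:122671744-122769393), one of the AMPA receptor partners. It lay whole in a domain of 712.5 kb (chr7:122217241-122929737) that it shared with Prkcb. Cacng1, Cacng4 and Cacng5 stand together on chromosome 11 and were outside at 575.5 to 760.5 kb from a border. Cacng6, Cacng7 and Cacng8 stand together on chromosome 7 before its first domain, at 313.0 to 392.5 kb. Cacng2, which encodes stargazin, was outside at 5560 kb, in a gap of 14.1 Mb that also held Cacna1i.

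**Figure D4:**
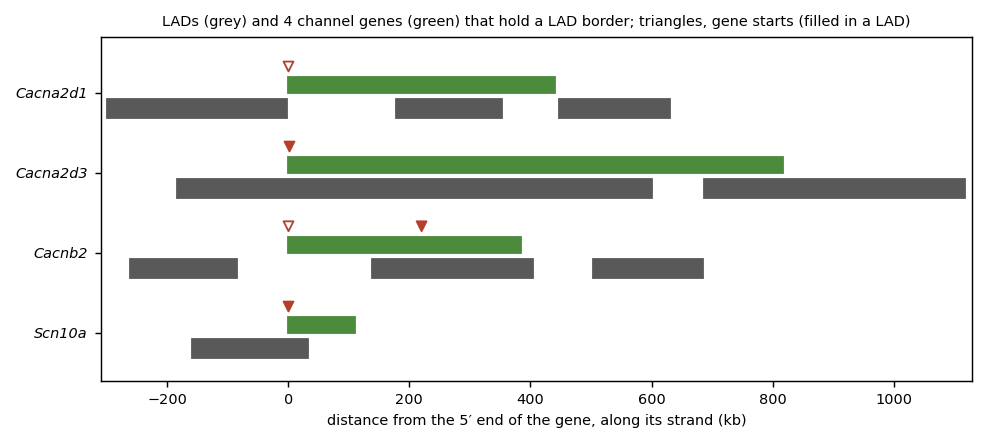
The 4 channel genes with a LAD border inside (green), LADs within 300 kb of them (grey bars) and the listed gene starts (triangles, filled where in a LAD), in kb from the 5′ end of each gene along its strand. The start is outside and the middle inside for Cacna2d1, the starts of Cacnb2 lie on both sides of a border, and in Scn10a only the start region is covered.

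Of the 40 genes, 20 had another channel gene within 1 Mb, in 7 groups. All members were in LADs in 1 group (chromosome 2), none in 4, and both states occurred in 2, the group of Scn10a and Scn11a and that of Cacna2d3 and Cacna1d. Of the 20 genes without such a neighbour, 5 were in LADs, a share near the 23.8% of all protein-coding genes. The 28 channel genes outside LADs had a median distance of 729.0 kb to a border, against 796.3 kb for the 16680 protein-coding genes outside. Those that lay between domains were spread over 15 gaps of 0.815 to 14.6 Mb. The longest of these gaps, on chromosome 11, held 6 channel genes: Cacna1g, Cacnb1, Scn4a, Cacng1, Cacng4 and Cacng5. The 15 gaps held a median of 21.3 protein-coding genes per Mb, and the 9 domains a median of 3.77. That median was the value of the Cacnb2 domain, which held Cacnb2 alone, and the Scn3b domain held 38.0 per Mb. Densities over all LADs and gaps were not computed, so these values are not particular to channel genes.

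The starts of the channel genes were examined in the RefSeq promoter windows of the mm10 build (GRCm38.p6), from 250 bases before to 50 after a start. Entries matched 30 of the 40 genes, with 41 starts. Among those without an entry are Scn3a, Scn3b, Cacna1a, Cacna1g, Cacna1h, Cacna2d4, Cacng1 and Cacng4. A listed start can lie inside the gene: the only one of Cacna1e is 158.9 kb from the 5′ end, and that of Scn4a 16.2 kb. By the most upstream listed start, 9 of 30 genes (30%) were in a LAD, against 23.9% of the 17492 protein-coding genes with an entry. Of these 9 genes, 8 were also in a LAD by midpoint. Scn10a was counted by start only, Cacna2d1 and Cacnb2 by midpoint only, and Scn3a and Scn3b have no entry.

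The windows that carry the border findings are printed 5′ to 3′ on the strand of the gene, with every CG dinucleotide in capitals, since unmethylated CG-rich windows mark the promoters of many genes that are active or poised. The first pair is the upstream start of Cacnb2 outside the LAD (chr2:14604056-14604355, plus strand) and the start of the same gene inside it (chr2:14823842-14824141, plus strand).
Cacnb2 upstream start: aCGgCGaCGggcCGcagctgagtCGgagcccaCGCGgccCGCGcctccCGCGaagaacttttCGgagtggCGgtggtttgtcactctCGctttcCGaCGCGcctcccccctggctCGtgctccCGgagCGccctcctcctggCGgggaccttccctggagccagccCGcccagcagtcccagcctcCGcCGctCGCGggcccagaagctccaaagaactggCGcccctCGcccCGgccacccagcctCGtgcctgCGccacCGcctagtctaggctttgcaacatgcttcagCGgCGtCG
Cacnb2 downstream start: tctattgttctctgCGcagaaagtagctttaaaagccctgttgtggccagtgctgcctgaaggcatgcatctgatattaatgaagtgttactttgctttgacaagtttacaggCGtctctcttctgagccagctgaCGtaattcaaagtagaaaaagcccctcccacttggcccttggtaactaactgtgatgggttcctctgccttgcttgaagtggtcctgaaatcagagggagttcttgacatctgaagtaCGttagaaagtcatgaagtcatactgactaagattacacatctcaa
The upstream window held 35 CG dinucleotides and 71.7% G and C, and the downstream window 4 and 44.0%. Starts of 1 gene differed as much where all of them lay outside LADs: the counts were 63 and 4 in Cacna1d, 57, 7 and 3 in Cacna1c, and 40, 27 and 5 in Cacnb4.

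A CG-rich start also occurred inside a LAD, in Cacna2d3. The windows are those of its relative Cacna2d1, outside a LAD beside a border (chr5:15934441-15934740, plus strand), and of Cacna2d3, 184.4 kb from a border inside one (chr14:29721815-29722114, minus strand).
Cacna2d1 start: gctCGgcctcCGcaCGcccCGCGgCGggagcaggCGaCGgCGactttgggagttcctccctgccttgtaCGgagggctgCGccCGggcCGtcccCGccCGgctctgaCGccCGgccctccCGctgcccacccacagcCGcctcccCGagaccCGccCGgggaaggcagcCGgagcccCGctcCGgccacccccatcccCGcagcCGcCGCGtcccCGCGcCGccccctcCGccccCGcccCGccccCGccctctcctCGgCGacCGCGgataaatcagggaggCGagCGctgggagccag
Cacna2d3 start: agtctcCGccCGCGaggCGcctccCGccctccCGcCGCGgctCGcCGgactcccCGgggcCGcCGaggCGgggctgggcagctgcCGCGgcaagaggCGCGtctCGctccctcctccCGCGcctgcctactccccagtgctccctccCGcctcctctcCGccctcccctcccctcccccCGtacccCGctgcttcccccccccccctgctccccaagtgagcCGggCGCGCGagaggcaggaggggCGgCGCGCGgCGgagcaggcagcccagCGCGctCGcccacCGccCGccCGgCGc
Both were rich in CG, with 42 and 41 dinucleotides, as was that of Cacna2d2, outside LADs, with 43. The window of Cacna2d3 had the most of the 11 channel gene starts in LADs. The next, those of Scn10a and of the start inside Cacna1e, had 11 each.

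Among the sodium channel genes, the windows of Scn2a (upstream start, chr2:65620519-65620818, plus strand) and Scn10a (chr9:119718983-119719282, minus strand) lay in LADs and that of Scn8a (upstream start, chr15:100870395-100870694, plus strand) lay outside. They are shown because Scn2a and Scn8a encode related neuronal channels and had opposite placements.
Scn2a upstream start: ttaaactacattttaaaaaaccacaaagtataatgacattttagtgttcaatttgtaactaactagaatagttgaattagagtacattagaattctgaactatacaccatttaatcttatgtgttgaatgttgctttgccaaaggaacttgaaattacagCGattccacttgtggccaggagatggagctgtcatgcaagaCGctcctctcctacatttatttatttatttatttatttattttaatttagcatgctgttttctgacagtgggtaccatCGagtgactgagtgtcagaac
Scn10a start: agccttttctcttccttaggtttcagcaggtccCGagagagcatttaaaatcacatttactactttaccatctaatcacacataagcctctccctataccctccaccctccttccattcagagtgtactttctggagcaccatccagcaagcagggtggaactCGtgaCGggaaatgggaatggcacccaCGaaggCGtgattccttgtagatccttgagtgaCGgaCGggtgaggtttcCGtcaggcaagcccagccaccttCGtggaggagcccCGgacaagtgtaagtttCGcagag
Scn8a upstream start: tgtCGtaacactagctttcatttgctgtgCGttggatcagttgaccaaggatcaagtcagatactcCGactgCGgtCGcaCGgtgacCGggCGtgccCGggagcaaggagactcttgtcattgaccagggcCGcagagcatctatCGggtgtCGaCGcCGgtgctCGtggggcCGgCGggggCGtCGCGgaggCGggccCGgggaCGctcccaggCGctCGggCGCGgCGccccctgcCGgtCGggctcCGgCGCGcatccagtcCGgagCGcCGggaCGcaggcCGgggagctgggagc
The CG counts of these windows were 3 in Scn2a, 11 in Scn10a and 38 in Scn8a, and G and C made up 33.0%, 51.7% and 70%. At the downstream starts, which are not printed, the counts were close, with 9 in Scn2a (in the LAD) and 12 in Scn8a (outside), so the contrast between these genes held for the upstream starts only.

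Over all protein-coding genes, windows in LADs had fewer CG dinucleotides, with a median of 3 over 4753 starts, against 17 over 16510 starts outside. The 11 starts of channel genes in LADs had a median of 9 (range, 3 to 41), and the 30 outside a median of 16 (2 to 63). At least 10 CG dinucleotides were present in 3 of the 11 windows in LADs (27.3%; 22.1% of all windows in LADs) and in 17 of the 30 outside (56.7%; 66.7% of all windows outside). The ranges of the 2 groups overlapped, and windows poor in CG also occurred far from LADs, as in Scn4a with 4 and Scn2b with 2. Starts of the same gene share a locus and are not independent.

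**Figure D5:**
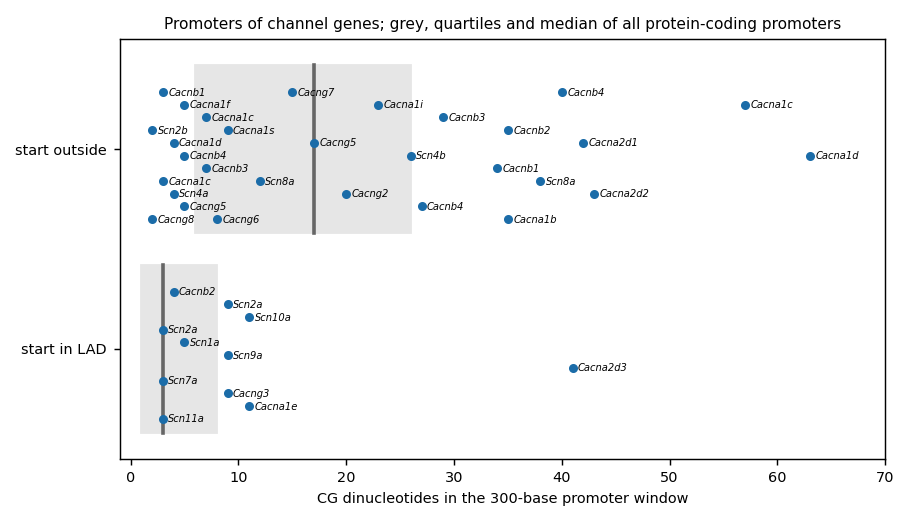
CG dinucleotides in the 300-base window of each listed start of a channel gene (points), for starts in and outside LADs; grey boxes and bars give the quartiles and the median over all protein-coding genes. The 11 starts in LADs range from 3 to 41, with Cacna2d3 apart from the others, and the 30 outside from 2 to 63.

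Short motifs, 4 in all, were searched on both strands of the windows. TATAAA, the TATA box, was in 2 of the 41 windows (4.88%), the downstream start of Scn2a and the upstream start of Cacna1d, against 12.6% of 21263 windows of all protein-coding genes. The parts of RE1, the element bound by the repressor REST, which is known to silence neuronal genes in other cells, were searched as TTCAGCACC and GGACAGC. The first was in 0 of 41 windows, against 0.414% of all windows. The second was in 2 (4.88%), those of Cacnb1 (upstream start) and Cacng6, against 6.88%. CACCTG, an E-box, was in 7 (17.1%), against 19.7%, and of the windows in LADs only that of Scn9a held it. The end of TTCAGCACC can overlap the start of CACCTG. A match or its absence describes these windows only.

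A list of 36 genes held 32 that act with these channels or form the sodium leak channel complex, and the 4 Catsper genes, which encode the pore of a separate calcium channel of sperm. In all, 11 were in LADs (30.6%, against 23.8% of all protein-coding genes). Of its 17 genes of 100 kb or more, 11 were in LADs (64.7%, against 33.8% of all genes of that length). Of the 19 shorter ones, 0 were, against 26.5% of all genes under 20 kb (18.3% without receptor genes) and 16.4% of those of 20 to 100 kb. Of 12 partners of sodium channels and genes of the sodium leak channel, 5 were in LADs. These were Fgf12, Fgf13 and Fgf14, whose intracellular proteins bind the alpha subunits, and Nalcn, the leak channel itself, with its partner Unc79. Nalcn (chr14:123275678-123627330) and Fgf14 (chr14:123974441-124677686) stand near each other, so their placements are not independent. Ank2 and Ank3, whose ankyrins anchor sodium channels, had no base in a LAD, nor had Unc80. Of 20 partners of calcium channels, 6 were in LADs, and none of the 4 Catsper genes was. The 6 were Ryr2 and Ryr3, calcium release channels of the sarcoplasmic and endoplasmic reticulum, Stac, an adaptor of L-type channels, Jph1, which tethers the plasma membrane to the reticulum, and Rims1 and Rimbp2, scaffolds of the presynaptic active zone. Ryr1, the release channel that works with Cacna1s in skeletal muscle, was outside at 1982 kb from a border, and Cacna1s was outside at 748.3 kb. Placement was not shared throughout: Ryr2 and Stac lay in LADs over their full length, and no L-type gene had a base in one. Among the 11 listed genes in LADs, coverage was 80.0% in Rimbp2, 98.3% in Fgf13 and complete in the other 9.

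Marker genes of cell types were placed the same way. Of 7 fibroblast genes (Col1a1, Col1a2, Col3a1, Fn1, Vim, Thy1 and Pdgfrb), none had a base in a LAD, against 25.1% of all protein-coding genes. They are 5.20 to 67.8 kb long, and by midpoint 26.5% of all genes under 20 kb (18.3% without receptor genes) and 16.4% of those of 20 to 100 kb were in LADs. Of 7 neuronal markers 1 was in a LAD (Snap25), and of 7 markers of heart and skeletal muscle 1 was (Myh1, 9.38 kb from a border), against 23.8% of all protein-coding genes. Most of these markers of excitable cells were thus outside LADs too, and positions without expression do not check the labelled cell type.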

How the data were processed

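Lamin B1 CUT&RUN domains were taken from the authors' deposited BED list, whose values are start and end positions in base pairs on mm10, the build in the list's name. Its score was 0 in every line. Bowtie2 and mm10 are named per the submitters' processing notes. The domain caller, its threshold and the use of IgG or spike-in DNA are not given in the sources used here. That the list pools both Lamin B1 libraries was read from the word merged in its name. Borders follow steps of about 2.5 kb and no gap is under 52.5 kb, so a shorter detachment inside a domain would not show.

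Positions were counted from 1 and set against the RefSeq gene and promoter tables of GRCm38.p6 with Python 3.11.15 and pandas 2.3.3. All 40 channel genes enter the counts, and 2 of them are not reported here on their own. Those named in or crossing a LAD are given with positions. Background counts used 21887 protein-coding genes, of which 757, with 3 channel genes, lie beyond the outermost domains of their chromosome. Placement was tested on simulated data and was right for 2000 of 2000 genes. Members and lists were chosen with earlier results of these data known. A planned comparison of proteins was not run, and exon positions were not used here.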

Additional observations from a re-analysis of the deposited data

How the results depend on the processing

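The count of 12 channel genes in LADs was 9 to 13 under the 10 planned settings, which used all 40 genes, the 39 on autosomes or the 30 with a listed start. It was 9 with gene starts, whole genes or domains of at least 500 kb, 10 with domains shortened by 50 kb at both ends, 11 with at least 50% of the gene covered, and 13 with any overlap or with domains lengthened by 25 kb. Scn10a joined in both of the last, and Cacna2d1 and Scn3b left when domains were shortened. Leaving out the 5 genes of the chromosome 2 cluster, a setting chosen after seeing the data, gave 7 of 35. Using only genes between the outermost domains, also chosen after seeing the data, gave 12 of 37 (32.4%).

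The background share of 23.8% (95% Wilson interval, 23.2% to 24.4%) moved to 21.8% with whole genes, 25.1% with any overlap, 20.7% with domains of at least 500 kb, 27.3% with domains joined over gaps of 250 kb or less, 20.6% with shortened and 25.8% with lengthened domains, 22.8% on autosomes, 19.1% without receptor genes and 24.6% between the outermost domains. The interval covers counting only. The median distance of 729.0 kb was 695.2 to 754.4 kb under its 3 alternatives.

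No paired analysis was possible because only merged positions, with no signal per library, were used. Leaving out either Lamin B1 replicate could not be done either. Depth is unknown.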

Other observations

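The clusters of sodium channel genes on chromosomes 2 and 9 share relatives among their neighbours, and these differed in placement between the clusters. These genes were chosen after their values were seen. On chromosome 2, Csrnp3, Ttc21b and Xirp2 each lay in a LAD over the whole gene, with midpoints 156.3, 38.0 and 293.4 kb from a border. On chromosome 9, their relatives Csrnp1, Ttc21a and Xirp1 had no base in a LAD, although they lay 163.9 to 229.1 kb from Scn11a, which was covered throughout. Csrnp2, the relative near Scn8a on chromosome 15, was outside too, at 3023 kb from a border. Csrnp3 measured 191.3 kb, and Csrnp1 and Csrnp2 measured 13.6 and 15.7 kb, so length differed between the relatives along with placement, and its part was not tested.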
